A study of Mus musculus with 24 samples.

Results

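The genes that present peptides on major histocompatibility complex (MHC) class I molecules were followed in splenic B and non-B cells after whole-body irradiation (IR). They were 10 of the 21671 genes measured in every library, taken by symbol as genes of this pathway. The rule used no measured value, although earlier results of these data were known when the genes were chosen. The 10 were the heavy chain genes H2-K1 and H2-D1 with B2m and the peptide transporter and loading genes Tap1, Tap2 and Tapbp. The others were the immunoproteasome subunit genes Psmb8, Psmb9 and Psmb10, and the regulator Nlrc5. Total RNA was sequenced from the spleens of mice of 8 weeks of age on a C57/Bl6 background, in 24 libraries. B cells were the fraction held on B220 MicroBeads, and non-B cells were the column flow-through, which is enriched in T cells but is a mixture. For each cell type, 4 Trp53+/+ and 2 Trp53-/- libraries came from control mice and the same numbers from mice taken 4 h after 7 Gy of IR. The Trp53-/- mice carried the knockout allele in every cell, so that the genotype contrast is one of whole animals and not of B cells alone.

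Class I molecules carry peptides of proteins made inside the cell to its surface, where CD8 T cells and natural killer cells inspect them. Proteasomes cut the peptides, the heterodimer of TAP1 and TAP2 pumps them into the endoplasmic reticulum, tapasin (Tapbp) holds the empty heavy chain and beta-2 microglobulin beside the transporter, and the loaded complex leaves for the plasma membrane. In lymphoid cells the catalytic subunits encoded by Psmb5, Psmb6 and Psmb7 are replaced to a large degree by those of Psmb8, Psmb9 and Psmb10, and NLRC5 is the transactivator of class I promoters.

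The labels and the libraries were checked first. Cdkn1a, which encodes the p53-induced inhibitor of cyclin-dependent kinases p21, lay between 0.893 and 1.36 RPKM (reads per kb of gene and per M reads on exons, M being the prefix mega) in control Trp53+/+ B cells and between 82.3 and 97.8 RPKM after IR. It stayed between 0.562 and 0.726 RPKM in all 4 libraries of Trp53-/- B cells. Trp53 itself was lower but not absent in control Trp53-/- libraries, at 21.6 to 25.0 RPKM in the 4 libraries against 43.4 to 49.5 RPKM in the 8 Trp53+/+ ones. After IR it was 40.5 and 41.8 RPKM in Trp53-/- against 58.7 to 65.8 RPKM in Trp53+/+ B cells, and 34.6 and 36.4 RPKM in Trp53-/- against 35.0 to 38.6 RPKM in Trp53+/+ non-B cells, where the genotypes overlapped. The values do not show on which exons those reads lie. The 9 B cell markers examined (Cd79a, Ms4a1 and others) summed to 979.7 to 1246 RPKM in B libraries and to 239.7 to 671.6 RPKM in non-B libraries, while the 7 T cell markers summed to 27.8 to 50.7 RPKM and 254.9 to 547.3 RPKM, respectively. By these sums the non-B fraction held a sizeable B cell signal. No marker of either list was at 0 in any group. Genes of olfactory and vomeronasal receptors, 1434 in number, were above 0 for 5.30% to 13.0% of their number in 18 libraries but for 15.9% to 51.3% in 6 of the 8 irradiated Trp53+/+ libraries, a difference between libraries whose part in the results below was not tested except by leaving libraries out.

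A total of 7 of the 10 genes lie within the MHC on chromosome 17 of mm9, where the GENCODE annotation places H2-K1 at chr17:34132962-34137278, Tapbp at chr17:34052844-34066235, Psmb9 at chr17:34318932-34324697, Tap1 at chr17:34324498-34334170, Psmb8 at chr17:34334666-34338399, Tap2 at chr17:34340472-34353266 and H2-D1 at chr17:35399675-35404444. B2m lies at chr2:121973422-121978819, Nlrc5 at chr8:96996663-97051172 and Psmb10 at chr8:108459628-108462292. Tap1 and Psmb9 are transcribed away from each other, and their annotated models overlap at the 5′ ends. The libraries carry no strand, so that reads in the overlap cannot be told apart. H2-K1 and H2-D1 resemble other class I genes. Of all 50-base windows along their longest coding transcript, 8.9% of those of H2-K1 and 14.3% of those of H2-D1 were also present in another gene, and their values are uncertain to that extent. For B2m, Psmb8, Psmb9 and Psmb10 no window was shared, and for Tap1, Tap2 and Tapbp at most 0.9% were. Nlrc5 had no coding transcript in the set examined.

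The upstream sequences of the 3 surface chain genes, which had the highest levels, are shown for the exact motif matches they share and lack. So is the stretch that separates the diverging starts of Tap1 and Psmb9, which responded differently to IR. Letters are those of RefSeq (GRCm38.p6), each found once and unaltered in mm9, from which the coordinates are given. The run ends at the base before the RefSeq start of H2-K1 (chr17:34137293-34137542, minus strand), H2-D1 (chr17:35399789-35400038, plus strand), B2m (chr2:121973173-121973422, plus strand) and Tap1 (chr17:34324276-34324500, plus strand, whose first base adjoins the start of Psmb9 on the other strand). Capitals mark matches, on either strand, to the kappaB palindrome (the first capitals of H2-K1 and H2-D1), the interferon-response core (GAAA, any NN and GAAA again), the CCAAT box, the GC box GGGCGG, the CRE half-site TGACG and the TATA core TATAAA.
H2-K1: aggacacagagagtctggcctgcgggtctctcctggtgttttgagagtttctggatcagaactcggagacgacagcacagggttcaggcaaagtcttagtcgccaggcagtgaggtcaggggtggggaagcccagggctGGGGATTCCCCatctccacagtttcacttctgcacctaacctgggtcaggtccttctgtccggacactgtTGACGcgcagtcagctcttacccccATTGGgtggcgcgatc
H2-D1: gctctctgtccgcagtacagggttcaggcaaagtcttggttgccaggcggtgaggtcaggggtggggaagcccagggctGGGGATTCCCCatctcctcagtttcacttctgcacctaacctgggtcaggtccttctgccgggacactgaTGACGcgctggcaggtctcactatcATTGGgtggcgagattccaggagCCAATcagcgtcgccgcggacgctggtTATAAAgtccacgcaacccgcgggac
B2m: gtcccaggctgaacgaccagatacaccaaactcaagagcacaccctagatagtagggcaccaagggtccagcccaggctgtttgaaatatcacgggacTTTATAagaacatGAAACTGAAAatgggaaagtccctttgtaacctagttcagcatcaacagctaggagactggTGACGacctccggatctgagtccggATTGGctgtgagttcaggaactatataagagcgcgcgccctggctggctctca
Tap1 to Psmb9: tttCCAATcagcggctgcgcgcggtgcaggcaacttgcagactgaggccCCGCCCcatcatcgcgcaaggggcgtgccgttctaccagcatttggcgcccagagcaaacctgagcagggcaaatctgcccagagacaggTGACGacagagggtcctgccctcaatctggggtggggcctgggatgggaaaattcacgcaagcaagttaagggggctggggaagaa

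The sequences of H2-K1 and H2-D1 aligned over 177 positions with 91.0% identity, offset because their RefSeq starts differ. Both hold the kappaB palindrome, which was present in 10 of 32841 promoter windows of 250 bases (0.0304%). This pattern was searched for as the one of class I promoters, so that its presence in both genes is not an independent result. B2m alone among 8 genes with an entry (all but Tap2 and Nlrc5) matched the exact pattern of the interferon-response core, found in 2.98% of all windows. Sites that depart from this pattern were not sought. The lack of a match in H2-K1, H2-D1 and the others therefore does not show that they lack an interferon-response element. The CCAAT box was present in 6 of the 8 windows and in 33.9% of all windows, and the CRE half-site in 5 of the 8 against 17.8%. The consensus half-site of p53 was found in 7.13% of all windows and in none of the 8, which says only that these letters are not within 250 bases of the RefSeq start. No 2 of the motifs share letters in the 4 sequences shown.

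All 10 genes were expressed at high levels in every library. The median over the 24 libraries ran from 55.7 RPKM for Nlrc5, above 95.9% of all genes, to 126.6 RPKM for H2-K1, above 99.9% of them. H2-D1 (115.4 RPKM), B2m (95.7 RPKM), Tapbp (81.3 RPKM), Psmb8 (75.5 RPKM) and Psmb9 (67.6 RPKM) followed H2-K1, and Psmb10 (61.9 RPKM), Tap1 (58.4 RPKM) and Tap2 (56.3 RPKM) were near Nlrc5. None varied much. The highest of the 24 libraries exceeded the lowest by 1.33-fold for Tapbp and by 1.83-fold, the widest, for Nlrc5.

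**Figure D1:**
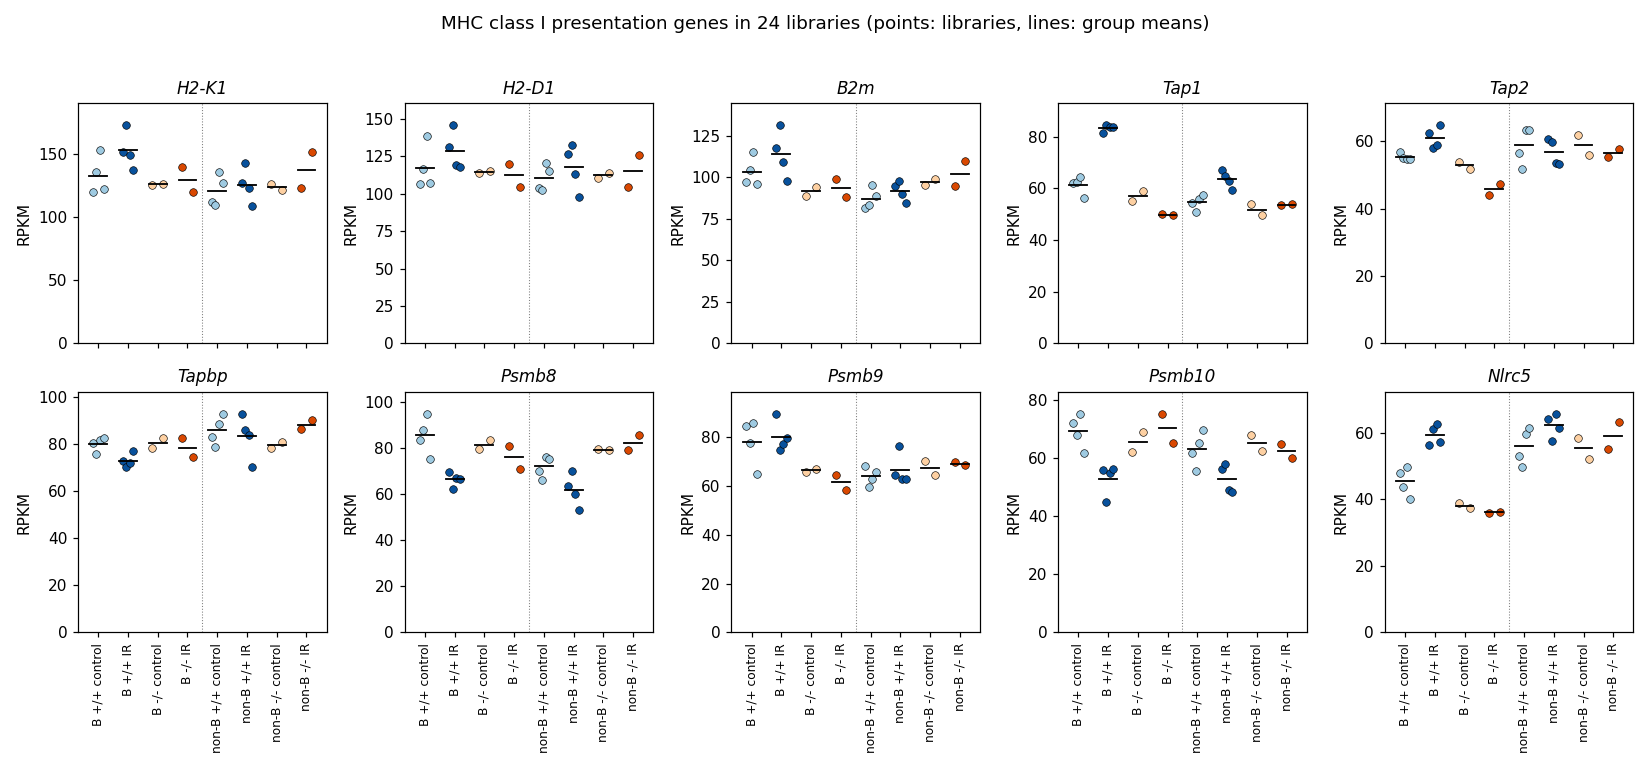
RPKM (vertical axes, from 0) of the 10 genes in 8 groups of cell type, Trp53 genotype and treatment, with 1 point per library and a line at the group mean. Tap1 in irradiated Trp53+/+ B cells (81.2 to 84.7 RPKM) lies above all other Tap1 values, and Nlrc5 is lowest in Trp53-/- B cells (36.0 to 38.8 RPKM).

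The upper end of the scale was compressed. The authors kept 1 read of each set of duplicates, which limits how many reads a kb of transcript can hold. Depth, estimated from the steps between low RPKM values, ranged from 4.79 to 11.1 M reads on exons (median 8.8). The gene with the highest level (among those of at least 500 exonic bases) held an estimated 1443 to 1856 reads per kb in every library, so that its RPKM ran from 152 in the deepest library to 301.2 in the shallowest one. H2-K1 reached 57.6% to 76% of that highest level and B2m held 631 to 998.2 reads per kb. Within the 8 groups, the shallowest library gave the highest value in all 8 for H2-D1 and B2m and in 7 for H2-K1. It did so in 6 for Psmb8, in 5 for Tap1 and in 4 each for Tapbp, Psmb9 and Psmb10. For Nlrc5 this held in 2 and for Tap2 in 1. The called differences of H2-K1 and B2m, and the IR responses of H2-K1, H2-D1 and B2m in B cells, are therefore given with and without log2 depth as a covariate, an alternative added after the values were seen.

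**Figure D2:**
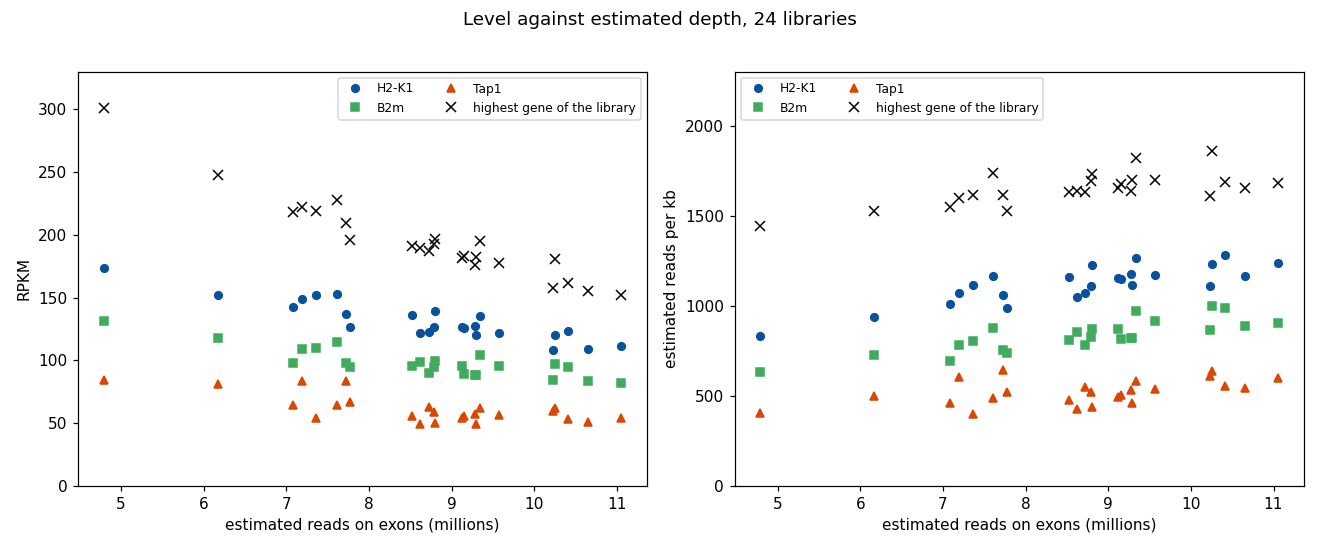
RPKM (left) and estimated reads per kb (right) against the estimated M reads on exons of the 24 libraries, for H2-K1, B2m, Tap1 and the highest gene of each library. The highest gene stays between 1443 and 1856 reads per kb while its RPKM falls from 301.2 to 152 as depth increases.

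In Trp53+/+ B cells, IR was followed by higher Tap1, Nlrc5 and Tap2 and by lower Psmb8 and Psmb10, all by less than 1.5-fold, while H2-K1, H2-D1, B2m, Tapbp and Psmb9 did not pass the test. Thus 3 genes rose and 2 fell at an adjusted p under 0.05, beside 25.4% and 25.8% of the 13821 genes tested (51.3% in all). With the further demand of an absolute log2 fold change above 0.58, which defined differentially expressed genes (DEGs), none of the 10 was called by limma. The share of all genes called was 24.7%. An unadjusted p under 0.05 by limma was given by 7 of the 10, and by at least the 51.3% of all genes that passed after adjustment. The irradiated and control libraries of 5 genes did not overlap, 3 above and 2 below, beside 22.9% and 23.3% of all genes. The median log2 fold change of the 10 genes was 0.14, against 0.01 over all genes. In these bulk samples, fewer cells of a type and less RNA per cell cannot be told apart.

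The heavy chain genes and B2m did not pass the test. H2-K1 encodes one of the classical class I heavy chains of this strain, and stood at 120.2, 135.6, 153.1 and 122.1 RPKM in control Trp53+/+ B cells and at 152, 173.4, 149 and 137.1 RPKM after IR. The ranges overlapped, and the log2 fold change of 0.20 (SE 0.093) had an adjusted p of 0.0845. H2-D1, the other classical heavy chain gene measured, gave 0.14 (SE 0.096, adjusted p = 0.2423), and B2m, the invariant light chain, gave 0.14 (SE 0.092, adjusted p = 0.2192), with B2m at 95.8 to 114.9 RPKM before and 97.7 to 131.7 RPKM after IR. The highest irradiated value of all 3 came from the same library, the shallowest of the study. With log2 depth as a covariate, the sign turned for all 3, to -0.09 for H2-K1, -0.18 for H2-D1 and -0.17 for B2m (adjusted p = 0.4222, 0.1 and 0.0765). With Trp53+/+ samples 1 and 2 alone, which hold the 2 shallowest irradiated libraries, all 3 passed upwards (0.35, 0.32 and 0.30, adjusted p = 0.0326, 0.0279 and 0.0276), and with 1 library left out H2-K1 passed in 2 and H2-D1 in 1 of 8 fits. The direction of the class I chains thus depended on the libraries and on how depth was treated. Depth was 7.61 to 10.25 M reads in control and 4.79 to 7.72 M reads in irradiated Trp53+/+ B cell libraries. Since these ranges barely overlap, the fit with depth can hardly separate IR from depth. This limit holds for every IR response of these cells given with depth. Without p53, the log2 fold changes in B cells were 0.04, -0.03 and 0.03 for H2-K1, H2-D1 and B2m, respectively (0.05, -0.02 and 0.04 with depth), and none passed.

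Of the transporter genes, Tap1 gave the lowest adjusted p of the 10. Tap1 stood at 62.05, 62.3, 64.3 and 56.2 RPKM in control Trp53+/+ B cells and at 81.2, 84.7, 83.7 and 83.5 RPKM after IR. All irradiated libraries exceeded all controls, with a log2 fold change of 0.44 (SE 0.053, adjusted p = 2.4e-05). In Trp53-/- B cells, Tap1 was 55.3 and 59.1 RPKM before and 49.95 and 49.6 RPKM after IR, with a log2 fold change of -0.20 (SE 0.075, adjusted p = 0.0530). The responses of the 2 genotypes lay on opposite sides of zero, and their difference of 0.64 (SE 0.092) passed the test (adjusted p = 6.1e-04), as it did in all 12 fits that left out 1 library and in all 12 other settings. The rise in Trp53+/+ B cells also passed in all 13 settings tried, with an adjusted p of at most 0.0051.

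Tap2, the partner subunit, moved the same way but by less. Its values were 57.0, 54.9, 54.7 and 54.8 RPKM in control and 62.4, 58.2, 58.9 and 65.0 RPKM in irradiated Trp53+/+ B cells, and 54.0 and 51.9 against 44.05 and 47.4 RPKM in Trp53-/- B cells. Neither pair of groups overlapped. Tap2 rose by a log2 fold change of 0.14 (SE 0.052, adjusted p = 0.0395) with p53 and fell by 0.21 (SE 0.074, adjusted p = 0.0392) without it, beside 17.2% of genes that fell and 40.1% that changed in Trp53-/- B cells. The rise lost its call in 5 of 8 fits without 1 library (without control library 2, 3 or 4 or irradiated library 1 or 4, highest adjusted p = 0.0997 without the last) and in 6 of 13 settings. The fall lost it in 3 of 4 such fits (without either control library or the first irradiated one, highest adjusted p = 0.2282 without the last). The difference between genotypes was 0.35 (SE 0.091, adjusted p = 0.0191) and lost its call in the same 3 fits of 12 (highest adjusted p = 0.1010). Tapbp, which encodes tapasin, was 75.8 to 82.7 RPKM before and 70.1 to 77.0 RPKM after IR in Trp53+/+ B cells, with a log2 fold change of -0.14 (SE 0.056, adjusted p = 0.0612), and -0.04 in Trp53-/- B cells.

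The immunoproteasome genes did not follow Tap1, although Psmb8 and Psmb9 lie on either side of it. Psmb8, the subunit that takes the place of Psmb5, was 83.6, 87.8, 95 and 75.5 RPKM in control and 69.6, 62.3, 67.2 and 66.7 RPKM in irradiated Trp53+/+ B cells. Psmb10, which takes the place of Psmb7, was 71.8, 67.8, 75.1 and 61.5 RPKM before and 55.8, 44.7, 54.9 and 56.1 RPKM after. In both genes every irradiated library was below every control, and both fell, Psmb8 by 0.36 on the log2 scale (SE 0.074, adjusted p = 0.0016) and Psmb10 by 0.38 (SE 0.089, adjusted p = 0.0031). Both calls were present in all 8 fits without 1 library. With log2 depth as a covariate Psmb8 still fell (adjusted p = 0.0179), whereas Psmb10 gave -0.28 with an adjusted p of 0.1272. Over the 13 settings the adjusted p ranged from 2.5e-05 to 0.0736 for Psmb8 and from 3.0e-04 to 0.1272 for Psmb10.

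Psmb9, which takes the place of Psmb6, was 64.8 to 86.0 RPKM before and 74.6 to 89.7 RPKM after IR in Trp53+/+ B cells, with a log2 fold change of 0.04 (SE 0.090, adjusted p = 0.7085). In Trp53-/- B cells, the log2 fold changes were -0.10 for Psmb8 (79.6 and 83.3 against 81.1 and 70.8 RPKM), -0.11 for Psmb9 and 0.10 for Psmb10 (62.1 and 68.8 against 75.2 and 65.1 RPKM), and none passed. The genotypes differed for Psmb10, by -0.48 (SE 0.153, adjusted p = 0.0463). This call was present in 3 of 12 fits without 1 library, namely those without control library 4 or irradiated library 4 of Trp53+/+ or irradiated library 2 of Trp53-/- B cells, and in 5 of 12 other settings (adjusted p up to 0.2039, without the first irradiated Trp53-/- library, and up to 0.2084). For Psmb8 the difference of -0.25 (SE 0.129) did not pass (adjusted p = 0.1974).

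Nlrc5 rose in Trp53+/+ B cells, from 47.9, 43.6, 49.8 and 40.1 RPKM to 56.4, 61.0, 62.6 and 57.1 RPKM. The groups did not overlap, and the log2 fold change of 0.39 (SE 0.069, adjusted p = 5.3e-04) passed in all 8 fits without 1 library and in all 13 settings. In Trp53-/- B cells Nlrc5 was 38.8 and 37.3 RPKM before and 36.0 and 36.3 RPKM after IR, with a log2 fold change of -0.07 (SE 0.098, adjusted p = 0.5985). The difference between genotypes was 0.46 (SE 0.119, adjusted p = 0.0195). It missed the threshold in 3 of 12 fits without 1 library (without either control or the first irradiated Trp53-/- library, highest adjusted p = 0.0922 without the first control). It also missed in 2 of 12 other settings. They were Trp53+/+ samples 3 and 4 alone (adjusted p = 0.0965) and log2 depth as a covariate (0.39, adjusted p = 0.0915). In all, 4 of the 10 genes differed in response between genotypes in B cells, 3 upwards and 1 downwards, beside 8.14% and 10.6% of all genes (18.8% in all).

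**Figure D3:**
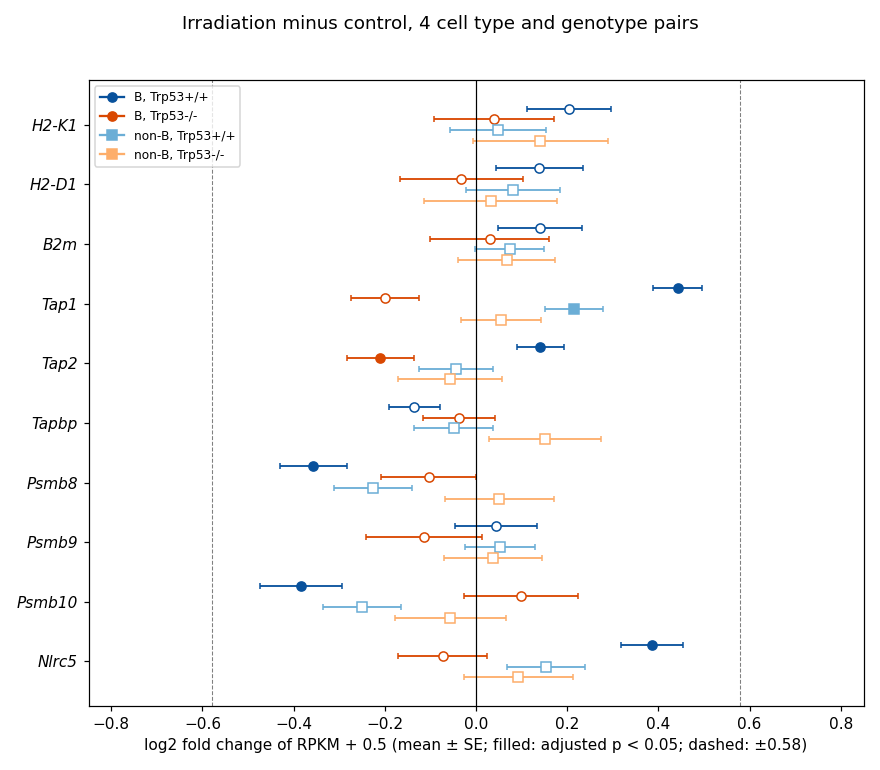
Log2 fold change (IR minus control, of RPKM + 0.5) of the 10 genes in B and non-B cells of both genotypes, with bars of 1 SE, filled symbols at an adjusted p under 0.05 and dashed lines at 0.58 in either direction. Tap1 (0.44), Nlrc5 (0.39), Psmb8 (-0.36) and Psmb10 (-0.38) in Trp53+/+ B cells stand farthest from 0, and no point passes 0.58.

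Cell type markers also changed in the B cell fraction. Those of red cell precursors summed to 47.3 to 124.8 RPKM in control and 18.3 to 31.6 RPKM in irradiated Trp53+/+ B cell libraries (7 genes, of which 5 fell). Myeloid markers summed to 184.1 to 242 and 120.7 to 198.2 RPKM (7 genes, 3 lower and 1 higher). Of 9 B cell markers 3 fell and 1 rose, of 7 T cell markers 2 fell, and of 6 natural killer cell markers 1 fell. Beside these counts, 25.8% of all genes fell and 25.4% rose. None of these markers was at 0 in either group, and their part in the changes above was not tested.

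Because Psmb8, Psmb9 and Psmb10 can be set against the subunits they replace, the log2 ratio of their RPKM was taken in each library. These ratios, and that of Tap1 to Psmb9 and to Tap2, were chosen after the values were seen. A ratio within a library shows unequal change and not which gene moved. In Trp53+/+ B cells, the ratio of Psmb8 to Psmb5 went from 1.33 ± 0.15 to 0.81 ± 0.15 (SD, n = 4 each), that of Psmb9 to Psmb6 from 0.73 ± 0.070 to 0.42 ± 0.084, and that of Psmb10 to Psmb7 from 1.83 ± 0.12 to 1.36 ± 0.14. All 3 sets of irradiated libraries lay below all controls, which gave p = 0.0286 in a two-sided exact permutation test, the smallest p that 4 against 4 allows, and an adjusted p of 0.0476 over the 10 ratios tested. Trp53-/- B cells showed the same direction, with mean differences of the ratios of -0.87, -0.57 and -0.26 (n = 2 each, no test). There, Psmb5 went from 29.4 and 34.5 to 58.8 and 49.6 RPKM and Psmb6 from 50.4 and 52.96 to 76.1 and 66.0 RPKM, and all 3 constitutive genes rose (log2 fold change 0.75 for Psmb5, adjusted p = 7.2e-04, 0.45 for Psmb6, adjusted p = 0.0068, and 0.35 for Psmb7, adjusted p = 0.0087). Of all genes in Trp53-/- B cells, 40.1% changed, of which 17.2% fell and the remainder of the 40.1% rose. In Trp53+/+ B cells Psmb6 rose by 0.35 (adjusted p = 0.0031), beside 25.4% of all genes, and Psmb5 and Psmb7 did not pass (0.15 and 0.08).

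The ratio of Tap1 to Psmb9, with 225 bases between their RefSeq starts, went from -0.35 ± 0.11 to 0.06 ± 0.14 in Trp53+/+ B cells, again without overlap (exact permutation p = 0.0286, adjusted p = 0.0476). Its mean difference was -0.09 in Trp53-/- B cells, 0.16 in Trp53+/+ non-B cells (exact permutation p = 0.1143) and 0.02 in Trp53-/- non-B cells. Tap1 against Tap2 gave differences of 0.30 in Trp53+/+ B cells and 0.26 in Trp53+/+ non-B cells, both without overlap (exact permutation p = 0.0286). None of the 3 ratios of proteasome subunits separated control from irradiated Trp53+/+ non-B cells, where the differences were 0.14, 0.21 and -0.16 (exact permutation p = 0.2857, 0.0571 and 0.3429).

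**Figure D4:**
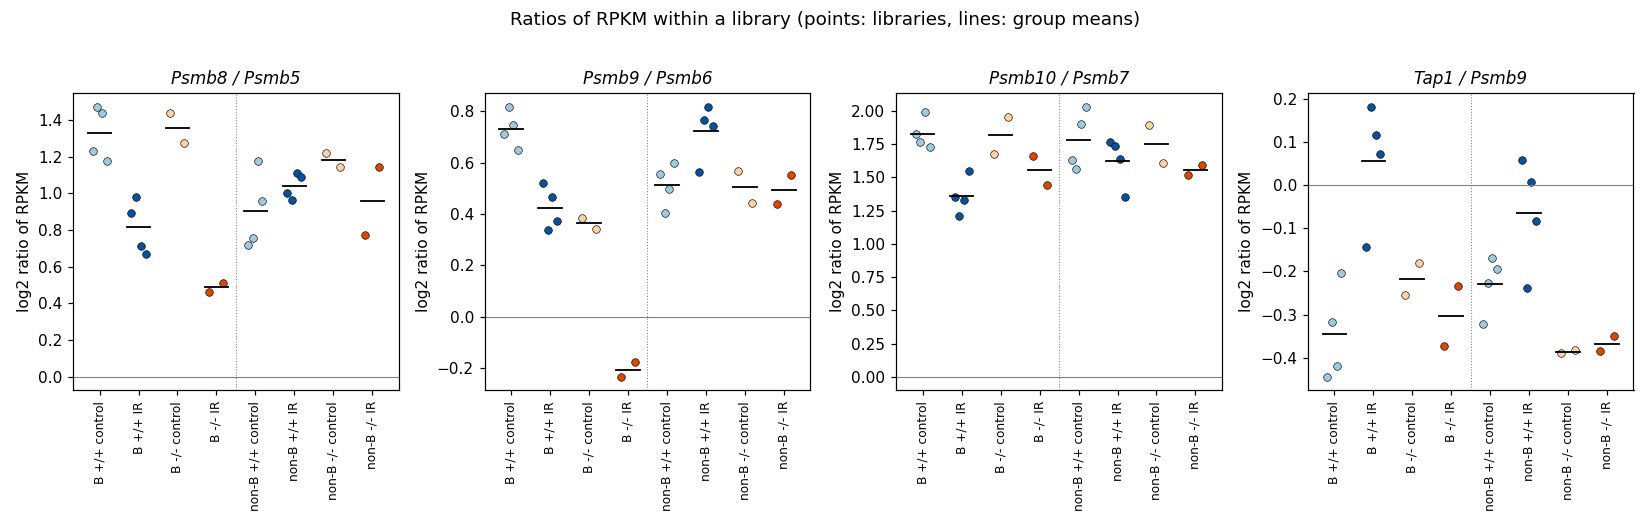
Log2 ratio of RPKM within each library for Psmb8 to Psmb5, Psmb9 to Psmb6, Psmb10 to Psmb7 and Tap1 to Psmb9 in the 8 groups, with 1 point per library and a line at the group mean (axes do not all start at 0). In Trp53+/+ B cells the irradiated libraries lie below the controls in the 3 proteasome ratios (mean 1.33 to 0.81 for Psmb8 to Psmb5) and above them in Tap1 to Psmb9.

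Fewer of the 10 genes passed the test in non-B cells. In Trp53+/+ non-B cells, Tap1 rose from 54.4, 50.9, 55.7 and 57.6 RPKM to 67.0, 64.7, 63.0 and 59.5 RPKM, with a log2 fold change of 0.22 (SE 0.063, adjusted p = 0.0355). The groups did not overlap, but the call was present in 2 of 8 fits without 1 library, those without control library 4 or irradiated library 4 (highest adjusted p = 0.1026, without control library 2), and in 8 of 14 settings. With the replicate number as a block it was lost (adjusted p = 0.0945). Tap1 was thus the 1 gene of 10 that passed, beside 8.72% of the 14018 genes tested that rose and 18.7% that changed, and no gene of the 10 was a DEG, beside 9.85%. By limma, 3 of the 10 had an unadjusted p under 0.05, as had at least the 18.7% of all genes that passed after adjustment. Psmb8 was 70.25, 66.1, 76.3 and 75.5 RPKM before and 63.5, 69.97, 60.2 and 53.2 RPKM after IR, and Psmb10 was 61.6, 55.5, 65.1 and 69.4 RPKM before and 56.1, 57.9, 48.9 and 48.4 RPKM after. Both pairs of groups overlapped, with log2 fold changes of -0.23 (SE 0.085, adjusted p = 0.0827) and -0.25 (SE 0.086, adjusted p = 0.0644). Each fell past the threshold in 3 of 14 settings (Psmb8 by 0.34 with depth, adjusted p = 0.0068, and Psmb10 by 0.46 with samples 3 and 4 alone, adjusted p = 0.0201). With depth, and with samples 3 and 4 alone, the calls of these cells were 1 and 2 lower genes and no higher one. Markers of other cells moved in the same comparison: those of red cell precursors summed to 125.4 to 319.4 RPKM in control and 28.2 to 106.2 RPKM in irradiated libraries (4 of 7 fell), those of B cells to 356.2 to 571.8 and 239.7 to 485.1 RPKM (2 of 9 fell), those of T cells to 315.4 to 453.3 and 254.9 to 347.3 RPKM (2 of 7 fell) and myeloid ones to 275.4 to 329.3 and 304.7 to 441.1 RPKM (1 of 7 rose). Of all genes in that comparison, 18.7% changed, of which 8.72% rose and the remainder of the 18.7% fell. The part of these markers in the changes was not tested. In Trp53-/- non-B cells no gene of the 10 passed, at an adjusted or an unadjusted p under 0.05, beside 0.471% of all genes, and the log2 fold changes ran from -0.06 to 0.15. No gene of the 10 differed in response between genotypes in non-B cells (beside 7.35% of all genes), and none had an unadjusted p under 0.05.

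The unstressed levels of the 2 genotypes were not distinguished. Loss of Trp53 gave no member an adjusted p under 0.05 in control B cells (limma, 1 of 10 at an unadjusted p under 0.05, beside 0.0506% of all genes with an adjusted p under 0.05) or in control non-B cells (0 of 10 at an unadjusted p under 0.05, beside 0.0428%). The lowest in B cells was Nlrc5, at a log2 difference of -0.25 (SE 0.084, adjusted p = 0.9333).

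The response of Trp53+/+ cells differed between B and non-B cells for Tap1, by 0.23 on the log2 scale (SE 0.077, adjusted p = 0.0300, beside 30.1% of 14598 genes). This call was lost in 4 of 16 fits without 1 library (without control B library 4, control non-B library 3 or 4 or irradiated non-B library 4, highest adjusted p = 0.0693 without the first of these) and in 7 of 14 settings, with an adjusted p of up to 0.4819. For Nlrc5 (0.23, adjusted p = 0.1153) and Tap2 (0.19, adjusted p = 0.1485) the difference between cell types did not pass.

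Levels were next compared between cell types. In control Trp53+/+ mice, B cells had higher B2m, Tap1, Psmb8 and Psmb9 and lower Nlrc5 than non-B cells, none by 1.5-fold. The 4 higher and 1 lower genes compare with 42.8% of all genes in either direction, and none was a DEG beside 24.8%. This balance depended on the scaling, with 1 higher and 1 lower gene under median-ratio scaling and 0 higher and 4 lower genes under quantile normalization. Nlrc5 was 40.1 to 49.8 RPKM in B cells and 49.8 to 61.5 RPKM in non-B cells, with a log2 difference of -0.30 (SE 0.077, adjusted p = 0.0035). Psmb9 gave 0.28 (SE 0.085, adjusted p = 0.0117), Psmb8 0.24 (SE 0.080, adjusted p = 0.0189), B2m 0.24 (SE 0.085, adjusted p = 0.0276, and 0.19 with depth, adjusted p = 9.8e-04) and Tap1 0.16 (SE 0.054, adjusted p = 0.0209). Without the first and second control non-B libraries, in which red cell precursor markers summed to 319.4 and 318.4 RPKM against 125.4 and 126.4 RPKM in the other 2, none of these 4 higher calls remained (adjusted p from 0.0568 to 0.2618). With 1 library left out, the call of B2m was lost without control B library 2 or 3 or control non-B library 1 or 2 (highest adjusted p = 0.1045), that of Tap1 without control B library 1, 2 or 3 or control non-B library 2 (highest adjusted p = 0.0882), and that of Psmb8 without control B library 3 or control non-B library 2 (highest adjusted p = 0.0784).

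After IR, B cells had higher H2-K1, B2m, Tap1 and Psmb9 and lower Tapbp than non-B cells of Trp53+/+ mice, 5 of 10 genes beside 61.7% of all genes. The 4 higher and 1 lower genes became 1 and 1 under median-ratio scaling and 1 and 3 under quantile normalization. Tap1 was 81.2 to 84.7 RPKM in B and 59.5 to 67.0 RPKM in non-B cells, a log2 difference of 0.39 (SE 0.054, adjusted p = 3.5e-06) that passed in all 8 fits without 1 library and all 13 settings. The other differences were 0.29 for H2-K1 (adjusted p = 0.0181), 0.31 for B2m (adjusted p = 0.0039), 0.27 for Psmb9 (adjusted p = 0.0094) and -0.18 for Tapbp (adjusted p = 0.0333). Depth was 4.79 to 7.72 M reads in irradiated B cell libraries and 7.08 to 10.2 M reads in irradiated non-B ones, and with log2 depth as a covariate the differences of H2-K1 and B2m were 0.04 and 0.10 (adjusted p = 0.5532 and 0.0757). Without the 2 irradiated libraries of each cell type with most receptor genes above 0, the calls of H2-K1, B2m and Psmb9 were lost (adjusted p = 0.6134, 0.4213 and 0.2561). Leaving out irradiated B library 2 or non-B library 4 alone ended that of H2-K1 (highest adjusted p = 0.0737), and quantile normalization turned the signs of H2-K1 and B2m (-0.08 and -0.01). Tapbp passed in 2 of 8 fits without 1 library, those without library 4 of either cell type (highest adjusted p = 0.1365, without non-B library 1).

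In Trp53-/- mice, Nlrc5 separated the cell types. It was 37.3 and 38.8 RPKM in B against 52.2 and 58.4 RPKM in non-B control cells, and 36.0 and 36.3 against 55.0 and 63.1 RPKM after IR. The log2 differences were -0.53 (SE 0.109, adjusted p = 9.8e-04) and -0.70 (SE 0.109, adjusted p = 5.8e-05), and the latter was the only value of the 10 genes in any comparison with a threshold that made a DEG (1 of 10, beside 26.1% of all genes). None was a DEG in the IR response of Trp53-/- B cells (beside 24.3% of all genes) or Trp53-/- non-B cells (0.442%), or between cell types in irradiated Trp53+/+ (35.7%) or control Trp53-/- mice (18.1%), and the counts at an unadjusted p under 0.05 by limma were 2, 0, 5 and 1 of 10, respectively. Both differences of Nlrc5 passed in every fit without 1 library and in all 9 settings. Tap2 was also lower in irradiated Trp53-/- B cells, by -0.31 (SE 0.094, adjusted p = 0.0139), a call lost in 2 of 4 fits without 1 library (without irradiated B library 1 or irradiated non-B library 2, highest adjusted p = 0.1157 without the former). At an adjusted p under 0.05 the counts were 1 of 10 before IR (beside 23.4%) and 2 of 10 after (beside 39.8%). Whether the cell type difference of Nlrc5 itself differed between genotypes was not tested. The B cell marker signal of the non-B fraction, given above, was between 440.2 and 671.6 RPKM in Trp53-/- libraries, and its part in these differences was not tested.

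**Figure D5:**
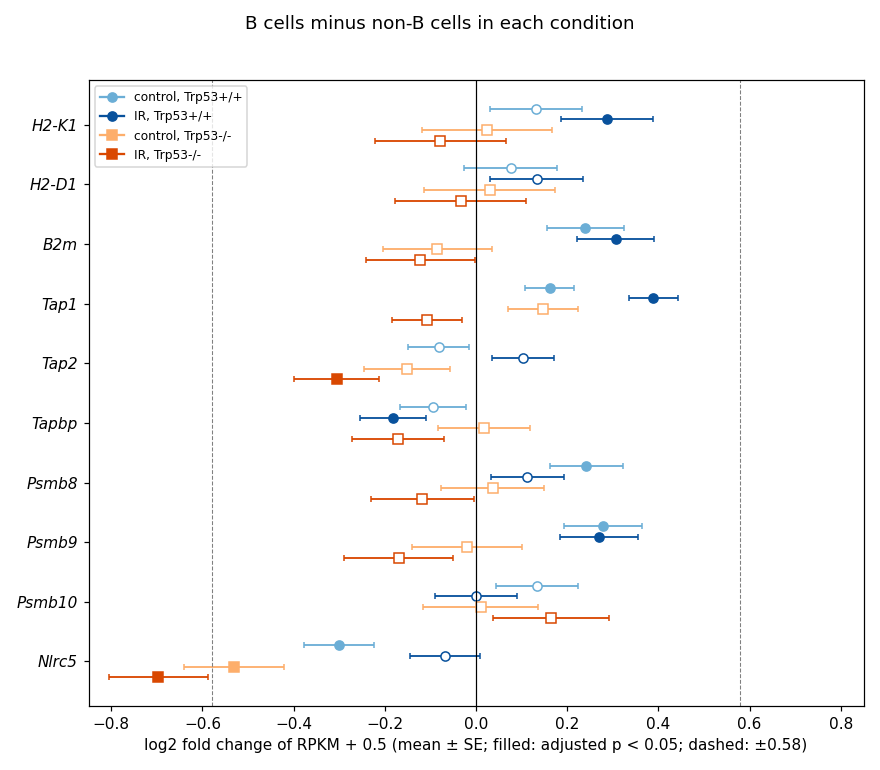
Log2 difference (B minus non-B, of RPKM + 0.5) of the 10 genes in the 4 combinations of treatment and Trp53 genotype, with bars of 1 SE, filled symbols at an adjusted p under 0.05 and dashed lines at 0.58 in either direction. Nlrc5 lies on the negative side in all 4, from -0.07 in irradiated Trp53+/+ to -0.70 in irradiated Trp53-/- mice, and Tap1 is farthest to the positive side in irradiated Trp53+/+ mice (0.39).

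The order of the 8 groups was read from their means. Irradiated Trp53+/+ B cells were the highest group for H2-K1, H2-D1, B2m, Tap1, Tap2 and Psmb9, although for the first 3 this order was not adjusted for depth, which was lowest in this group. They were the lowest for Tapbp and the second lowest for Psmb8 and Psmb10, above irradiated Trp53+/+ non-B cells. Neighbours in the order overlapped in all 7 steps for H2-K1, H2-D1, B2m, Tapbp and Psmb9, in 6 for Tap1, Psmb8 and Psmb10, in 5 for Tap2 and in 4 for Nlrc5. For Tap1 the only gap was below irradiated Trp53+/+ B cells (83.3 against 63.5 RPKM in irradiated Trp53+/+ non-B cells). For Nlrc5 the gaps lay between control non-B cells (55.3 RPKM in Trp53-/-), control Trp53+/+ B cells (45.4 RPKM), control Trp53-/- B cells (38.1 RPKM) and irradiated Trp53-/- B cells (36.2 RPKM). By limma, control B cells of the genotypes did not differ (adjusted p = 0.9333), nor did irradiated from control Trp53-/- B cells (adjusted p = 0.5985).

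Other genes of the pathway, from lists by function, were examined in the same fits. Of 5 genes for the folding of heavy chains and the trimming of peptides in the endoplasmic reticulum, 3 rose in Trp53-/- B cells after IR. There, 40.1% of all genes changed, of which 17.2% fell and the remainder of the 40.1% rose. In Trp53+/+ B cells 3 rose and 1 fell (Tapbpl), beside 25.4% and 25.8% of all genes. The chaperone calnexin (Canx) went from 55.6 to 70.3 RPKM before to 79.2 to 97.9 RPKM after IR, without overlap (log2 fold change 0.55, adjusted p = 3.3e-04), Pdia3, an oxidoreductase of the loading complex, gave 0.30 (adjusted p = 0.0126) and Erap1, the trimming aminopeptidase, gave 0.37 (adjusted p = 6.1e-04). Canx and Pdia3 rose in Trp53-/- B cells as well (0.47, adjusted p = 0.0115, and 0.40, adjusted p = 0.0209). Erap1 rose further in Trp53-/- B cells, from 28.9 and 30.8 to 55.5 and 46.8 RPKM (0.76, adjusted p = 5.9e-05), and the genotypes differed for Erap1 (-0.39, adjusted p = 0.0349) and Tapbpl (-0.34, adjusted p = 0.0275). Calr, encoding calreticulin, did not pass in either genotype (0.22 and 0.23).

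Some proteasome genes outside the 10 rose in B cells after IR. Of 11 genes for other subunits of the 20S core, 3 rose and none fell in Trp53+/+ B cells (median log2 fold change 0.16), beside 25.4% of all genes that rose. In Trp53-/- B cells 8 rose and none fell (median 0.48). There, 40.1% of all genes changed in either direction, of which 17.2% fell and the remainder of the 40.1% rose. Whether these counts differ was not tested as such, and 1 of the 11 genes, Psma3, differed between genotypes (-0.49, adjusted p = 0.0352). Of the 4 genes for activators and assembly, 3 rose in each genotype, among them Psme3, from 51.0 to 55.2 RPKM before to 71.1 to 77.0 RPKM after IR in Trp53+/+ B cells (0.47, adjusted p = 5.5e-05) and to 93.9 and 87.9 RPKM in Trp53-/- B cells (0.71, adjusted p = 6.1e-05). Psme1 and Psme2, the interferon-inducible activator subunits, rose by 0.27 and 0.24 in Trp53+/+ B cells (adjusted p = 0.0180 and 0.0300). The shares of all genes given above for the 20S core genes apply to these 4 genes too. In non-B cells none of these 15 genes passed in either genotype, beside 18.7% of all genes in Trp53+/+ and 0.471% in Trp53-/- cells. Psmb5, by contrast, fell in Trp53+/+ non-B cells by 0.36 (adjusted p = 0.0461).

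Among regulators of class I transcription, 16 genes in all, 2 rose and 6 fell of the 15 tested in Trp53+/+ B cells. Of all genes, 25.4% rose and 25.8% fell there. Nfyb, a subunit of the factor that binds the CCAAT box, went from 16.3, 14.97, 15.4 and 16.6 RPKM to 40.3, 39.7, 47.6 and 46.2 RPKM (log2 fold change 1.43, adjusted p = 1.2e-08). In Trp53-/- B cells Nfyb was 16.85 and 17.05 before and 20.5 and 19.1 RPKM after IR, and the genotypes differed by 1.21 (adjusted p = 3.5e-05). It rose in Trp53+/+ non-B cells too, by 0.63 (adjusted p = 0.0033). The kinase gene Jak2, which acts below the interferon gamma receptor, fell in B cells of both genotypes (-0.93, adjusted p = 5.3e-06, and -0.84, adjusted p = 3.3e-04). The interferon-induced factor gene Irf1 gave 0.004 in Trp53+/+ B cells (adjusted p = 0.9605), and Rfx5, a subunit of the factor with which NLRC5 acts, fell by 0.21 in Trp53+/+ B cells (adjusted p = 0.0062).

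Genes with a pattern like that of the 10 were sought over the 8 centred log2 group means. The mean profile of the 10 genes was nearly flat, with a root mean square size of 0.066, and the nearest genes outside the 10 were Vps13d, Eps15l1, Srrm1, Vps53 and Zbtb8os, at root mean square differences of 0.031 to 0.047. Profiles with more relief were those of Nlrc5 (size 0.28), Tap1 (0.22) and Psmb8 (0.15). Nearest to them were Ascc1 (difference 0.072), Fbxo43 (0.045) and Rock1 (0.037), respectively. The nearest genes to the others were Ylpm1 for H2-K1, Eps15l1 for H2-D1, Tmsb4x for B2m, Srrm2 for Tap2, Ap3d1 for Tapbp, Hcls1 for Psmb9 and Surf1 for Psmb10.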

How the data were processed

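Total RNA of 24 samples was depleted of ribosomal RNA and prepared without strand information. Per the methods and the submitters' processing notes, bases of quality under 20 were masked, reads were aligned to mm9 with TopHat (TopHat2 version 2.0.8 in the notes), 1 of each set of duplicated reads was kept, and reads on exons were counted with featureCounts version 1.4.5. The authors deposited RPKM, given to 3 decimals for 21671 genes, and the counts were not used here. The members and gene lists were chosen with earlier results of these data known.

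Samples were grouped by cell type, genotype and treatment from their labels. log2(RPKM + 0.5) was fitted with limma 3.58.1 in R 4.3.3 (empirical Bayes with a variance trend), separately for B and non-B cells and over all samples for cell type contrasts. Genes above 1 RPKM in at least 1 Trp53+/+ sample entered, and Benjamini-Hochberg adjustment ran over all of them. Fold changes are on the log2(RPKM + 0.5) scale. A gene passed the test at an adjusted p under 0.05, and DEGs also had an absolute log2 fold change above 0.58. Counts at an unadjusted p under 0.05 are given without the share of all genes at that level, so that they show no excess or lack. The genes named were the 10 members, partner genes of the pathway (Psmb5 to Psmb7, Psme1, Psme2, Calr, Canx, Pdia3, Erap1, Irf1 and Rfx5), at most 4 called genes of each other list per comparison by size of change, and the nearest genes by profile. Some items are not reported here. The labels do not state which samples come from separate mice. The methods count mice per condition and keep the flow-through of the B cell column as non-B cells. B and non-B samples may therefore share a spleen, and the labels do not show which do. The main cell type contrasts treated them as independent, and the replicate number was a block in an alternative setting alone. Thus p-values measure the spread between these samples. Same-numbered control and irradiated Trp53+/+ non-B samples deviated together (correlations of 0.155 to 0.330), a hint from the data and not from the labels.

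Depth was estimated from the spacing of low RPKM values with exonic lengths (known for 91.9% of genes). Of those values 53.7% to 61.4% lay within 0.1 of a whole read, so reads were not recovered and no count test was run. On simulated data for the IR response of Trp53+/+ B cells (12980 genes), 92 of 100 genes changed by 0.6 on the log2 scale and 100 of 100 changed by 1.2 were recovered. Alternatives were the pseudocount, filter, scaling, trend, replicate block, sample subsets and single libraries left out. Python 3.11.15 with numpy 2.4.6, pandas 2.3.3 and matplotlib 3.10.9 was used for the values, exact permutation tests and figures.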

Additional observations from a re-analysis of the deposited data

Results flagged for a closer look

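Among 40 groups of 4 values, 3 held a library apart from the other 3, where chance alone sets apart about 1 in 20 groups. They were Tap2 in control Trp53+/+ B cells (replicate 1, 56.97 RPKM), Psmb9 in irradiated Trp53+/+ non-B cells (replicate 2, 76.31 RPKM) and Psmb10 in irradiated Trp53+/+ B cells (replicate 2, 44.74 RPKM). The last is the shallowest library, and the fall of Psmb10 passed without it.

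The IR response differed between genotypes in B cells by an interaction test in limma for Tap1 (0.64, adjusted p = 6.1e-04), Tap2 (0.35, adjusted p = 0.0191), Nlrc5 (0.46, adjusted p = 0.0195) and Psmb10 (-0.48, adjusted p = 0.0463). The response of Trp53+/+ cells differed between cell types for Tap1 (0.23, adjusted p = 0.0300). Each difference is a log2 value, and the calls of all but the first were lost without some single libraries, as given with the results.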

How the results depend on the processing

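Of 1640 values of single genes under other settings, 1523 kept their side of the threshold (113 of them changed sign without passing the test in either fit), 82 lost the call, 31 gained it and 4 called values reversed. Of 1000 values with 1 library left out, 939 kept their side (83 with a change of sign), 53 lost the call and 8 gained it. The 4 reversals of called values came with quantile normalization, in B against non-B cells: H2-D1 in control Trp53+/+ mice (-0.11, adjusted p = 0.0199) and, in irradiated Trp53+/+ mice, H2-K1 (-0.076), H2-D1 (-0.19, adjusted p = 2.0e-04) and B2m (-0.009). The cause was not tested.

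Counts of the 10 genes with an adjusted p under 0.05 follow, by setting. Without a filter, 2 passed in the IR response of Trp53-/- B cells. With median-ratio scaling, 2 passed there, 2 in B against non-B cells both in control and in irradiated Trp53+/+ mice, and 0 in the cell type difference of the response. With quantile normalization, 2 passed in Trp53-/- B cells, 3 in the response of Trp53+/+ non-B cells, 2 and 7 in B against non-B cells of control and irradiated Trp53-/- mice, and 0 in the cell type difference. With the replicate number as a block, 0 passed in Trp53-/- B cells, 2 in the genotype difference in B cells, 0 in Trp53+/+ non-B cells and 0 in the cell type difference. With Trp53+/+ samples alone, 0 passed in Trp53+/+ non-B cells and in the cell type difference. Without the variance trend, 0 passed in Trp53-/- B and in Trp53+/+ non-B cells. With Trp53+/+ samples 1 and 2 alone, 3 passed in B against non-B cells after IR and 0 in the cell type difference. With samples 3 and 4 alone, 2 passed in Trp53+/+ B cells, 1 in the genotype difference in B cells, 2 in Trp53+/+ non-B cells, 2 and 3 in control and irradiated B against non-B cells and 2 in the cell type difference. Leaving out control non-B samples 1 and 2 gave 2 in B against non-B controls and 3 in the cell type difference. Leaving out the 2 irradiated libraries of each cell type with most receptor genes gave 2 in irradiated B against non-B cells and 0 in the cell type difference. With log2 depth as a covariate, chosen after seeing the data, 2 passed in Trp53-/- B cells, 2 and 1 in the genotype difference in B and non-B cells, 2 in irradiated B against non-B cells and 0 in the cell type difference. Without a fold threshold, the DEG counts of 0 became 5 in Trp53+/+ B cells, 1 in Trp53-/- B cells, 1 in Trp53+/+ non-B cells, 5 and 5 in control and irradiated B against non-B cells of Trp53+/+ mice and 1 in control Trp53-/- mice, and the 1 DEG in irradiated Trp53-/- mice became 2. At an adjusted p under 0.01, the counts were 0 in Trp53-/- B cells, 1 in the genotype difference in B cells, 0 in Trp53+/+ non-B cells, 1 and 3 in control and irradiated B against non-B cells of Trp53+/+ mice, 1 in irradiated Trp53-/- mice and 0 in the cell type difference.

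Leaving out 1 library gave 4 to 6 genes in Trp53+/+ B cells, 0 to 1 in Trp53-/- B cells, 1 to 4 in the genotype difference in B cells, 0 to 1 in Trp53+/+ non-B cells, 0 to 2 in the cell type difference, 2 to 5 and 3 to 5 in control and irradiated B against non-B cells of Trp53+/+ mice, and 1 to 2 in irradiated and 0 to 1 DEGs in control Trp53-/- mice.

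The replicate numbers did not pair the control and irradiated samples in B cells (deviations of same-numbered samples correlated above 0.1 in 0 of 6 pairs). Between cell types the result was mixed, with 6 of 12 pairs above 0.1 and correlations from -0.102 to 0.351. In non-B cells 4 of 6 pairs were above 0.1, all 4 of them Trp53+/+. Where a group holds 2 samples, as in Trp53-/- mice, both pairs have the same correlation by construction and are not separate evidence. Depth was estimated and not known, and duplicate removal compressed the highest values. With 2 Trp53-/- samples a group, small differences can be missed. In simulated data 24 of 100 genotype differences of 0.6 were recovered. Only 100 genes at each size of change differed there among 12980, whereas 18.8% of genes passed this contrast in the data. The simulated share therefore does not give the power in these data.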

Other observations

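Non-classical and class I-like genes, 17 in the list of which 16 were analysed here, included DEGs after IR. In Trp53+/+ B cells after IR, 3 rose and 5 fell, beside 25.4% and 25.8% of all genes. Of those that fell, 4 were DEGs, beside 24.7% of all genes in either direction. The counts were close to these shares. Fcgrt, the neonatal Fc receptor, went from 42.7, 44.3, 46.7 and 40.6 RPKM to 21.1, 11.7, 15.8 and 13.7 RPKM (log2 fold change -1.49, adjusted p = 9.5e-05). Cd1d1, which presents lipids to natural killer T cells, went from 39.3 to 51.2 RPKM before to 11.7 to 23.7 RPKM after IR (-1.34, adjusted p = 5.8e-05). Mr1, which presents microbial metabolites, gave -0.94 (adjusted p = 7.3e-04), and H2-T24 went from 81.0 to 87.6 to 44.9 to 51.8 RPKM (-0.77, adjusted p = 1.4e-06). All 4 genes had irradiated libraries below all controls. In Trp53-/- B cells, Fcgrt, Mr1 and H2-T24 also fell (-1.54, -0.92 and -0.86), and none of these 4 genes differed in response between genotypes by the test.

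H2-T23, which encodes the Qa-1 molecule that presents class I leader peptides, was the 1 gene of this list with such a difference (0.40, adjusted p = 0.0319). It was 83.3 and 84.0 RPKM before and 59.7 and 55.6 RPKM after IR in Trp53-/- B cells, and 75.5 to 94.5 RPKM before and 73.8 to 77.9 RPKM after IR in Trp53+/+ B cells. H2-Q10 separated the cell types, at 0.919 to 3.56 RPKM in control Trp53+/+ B cells and 24.1 to 56.9 RPKM in non-B cells (-4.31, adjusted p = 8.5e-10). Class I genes share sequence, and unique assignment of reads to H2-Q10, H2-T23 and H2-T24 was not tested.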
